A study of Homo sapiens with 18 samples.

Results

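The respiratory chain and ATP synthase are built from subunits of 2 genomes, and the nuclear genes for these subunits are described here. The members were taken by gene name: the NDUFA, NDUFB, NDUFC, NDUFS and NDUFV genes, SDHA to SDHD, the UQCR genes with CYC1, the COX4 to COX8 genes and the ATP5 genes. Of 57500 genes in the count table, 183 names matched, 95 of them ended as pseudogene names do and were dropped, and 88 genes remained. Of these, 36 belong to complex I, 4 to complex II, 10 to complex III, 18 to complex IV and 20 to complex V, the ATP synthase. NDUFA4 was placed in complex IV, where its protein is found. The names also bring in ATP5IF1, an inhibitor of the ATP synthase, COX7A2L, a factor that joins complexes III and IV, and ATP5S, which is not a standing subunit, and they leave out NDUFAB1. A filter on low counts left 83 of the 88 for testing. The other 5 had next to no reads: COX4I2 and COX6A2 had 2 counts each over 18 libraries, COX7B2 had 5, ATP5MGL had 6 and COX8C had 18.

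Complexes I and II take electrons from NADH and succinate and pass them to ubiquinone, complex III passes them on to cytochrome c, and complex IV passes them to oxygen. Complexes I, III and IV pump protons across the inner mitochondrial membrane, and complex V uses the gradient to make ATP. A few catalytic subunits of complexes I, III, IV and V are encoded in mitochondrial DNA (mtDNA), whereas every subunit of complex II and all supernumerary subunits are made from nuclear genes and imported.

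The cells were IMR90, a line of human lung fibroblasts, and polyadenylated RNA was sequenced in 18 libraries, 3 in each of 6 groups. Proliferating cells (Prol) were set against cells made senescent by irradiation, Sen (IR). In Sen (IR) + CCCP the irradiated cells were cleared of mitochondria with CCCP, an uncoupler that triggers mitophagy in cells overexpressing Parkin, which the study describes for this model and the labels leave unsaid. The other groups received, after CCCP, acetate, which cells convert to acetyl-CoA, mtDNA delivered by transfection, or both. In the study's protocol acetate was given repeatedly once mitochondria were cleared and mtDNA late in the experiment. No group had CCCP without irradiation or the transfection reagent without mtDNA, so the reagent and the mtDNA cannot be told apart here. CCCP was not given without clearing of mitochondria, so its own effects and the loss of mitochondria cannot be told apart either. The study used sodium acetate, and no group had a matched sodium salt, so acetate and sodium were not separated. Irradiation was the only trigger of senescence, so irradiation and senescence cannot be told apart. The labels do not say whether the 3 libraries of a group came from separate cultures. The study's legends give n = 3 for RNA-seq heat maps of such groups and count n as independent experiments. The p-values here measure the spread between these libraries.

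Libraries held 24624886 to 46224280 counts on genes. Replicate 3 of Sen (IR) and replicate 2 of Sen (IR) + CCCP + mtDNA + acetate stood apart from their groups: the chi-square per degree of freedom against the other replicates was 20.4 to 26.2, compared with 2.66 to 7.17 for the other pairs. Counts are therefore also given without these libraries. All 10 fibroblast markers were above 1 TPM (the authors' length-corrected transcript level) in every library, with COL1A1 between 267 and 6519 TPM and VIM between 2667 and 4091 TPM. Summed fibroblast markers were 17077 to 19280 TPM in Prol, 10898 to 12915 in Sen (IR) and 5287 to 6391 in the 4 CCCP groups, and the part of this fall in the other results was not tested. Endothelial and leukocyte markers summed to at most 0.398 and 2.90 TPM. Of the 4 epithelial markers CDH1 stayed at or below 0.211 TPM, while EPCAM, KRT8 and KRT19 reached 4.76, 13.3 and 46.5 TPM. Epithelial markers summed to 56.3 to 61.6 TPM in Prol, 20.2 to 25.4 in Sen (IR) and 9.18 to 17.2 in the 4 CCCP groups.

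The 13 mRNAs that mtDNA encodes show how far the CCCP groups were depleted. Their share of counts was 2.62% ± 0.295 (SD, n = 3) in Prol and 2.11% ± 0.468 in Sen (IR). It was 0.122% ± 0.0116 in Sen (IR) + CCCP, 0.132% ± 0.00761 with acetate and 0.0505% ± 0.00387 with mtDNA. All 13 fell with CCCP relative to Sen (IR), with a median log2 fold change of -4.28, and 11 fell further with mtDNA. In the group with both additions the replicates held 0.0640%, 0.237% and 0.0624%, so replicate 2 kept several times more of these mRNAs than its 2 partners. The nuclear members took 0.445% ± 0.0157 of counts in Prol and 0.479% ± 0.0120 in Sen (IR) + CCCP, so their share did not follow that of the mtDNA mRNAs. In bulk RNA, a change in the number of cells that express a gene and in the RNA per cell cannot be told apart.

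Scaling matters for all directions below. Values in CPM (counts scaled to a common library size) use library totals scaled by TMM, a method that centres the bulk of genes at no change. With plain library totals, chosen as an alternative after seeing the data, the median of all genes moved from 0.03 to 0.38 (log2) for Sen (IR) + CCCP against Prol, and from 0.03 to 0.29 against Sen (IR). The members moved with it, so that the difference between members and all genes was -0.26 in both scalings for CCCP against Prol and -0.18 and -0.17 for CCCP against Sen (IR). Changes are therefore reported relative to the bulk of genes.

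**Figure D1:**
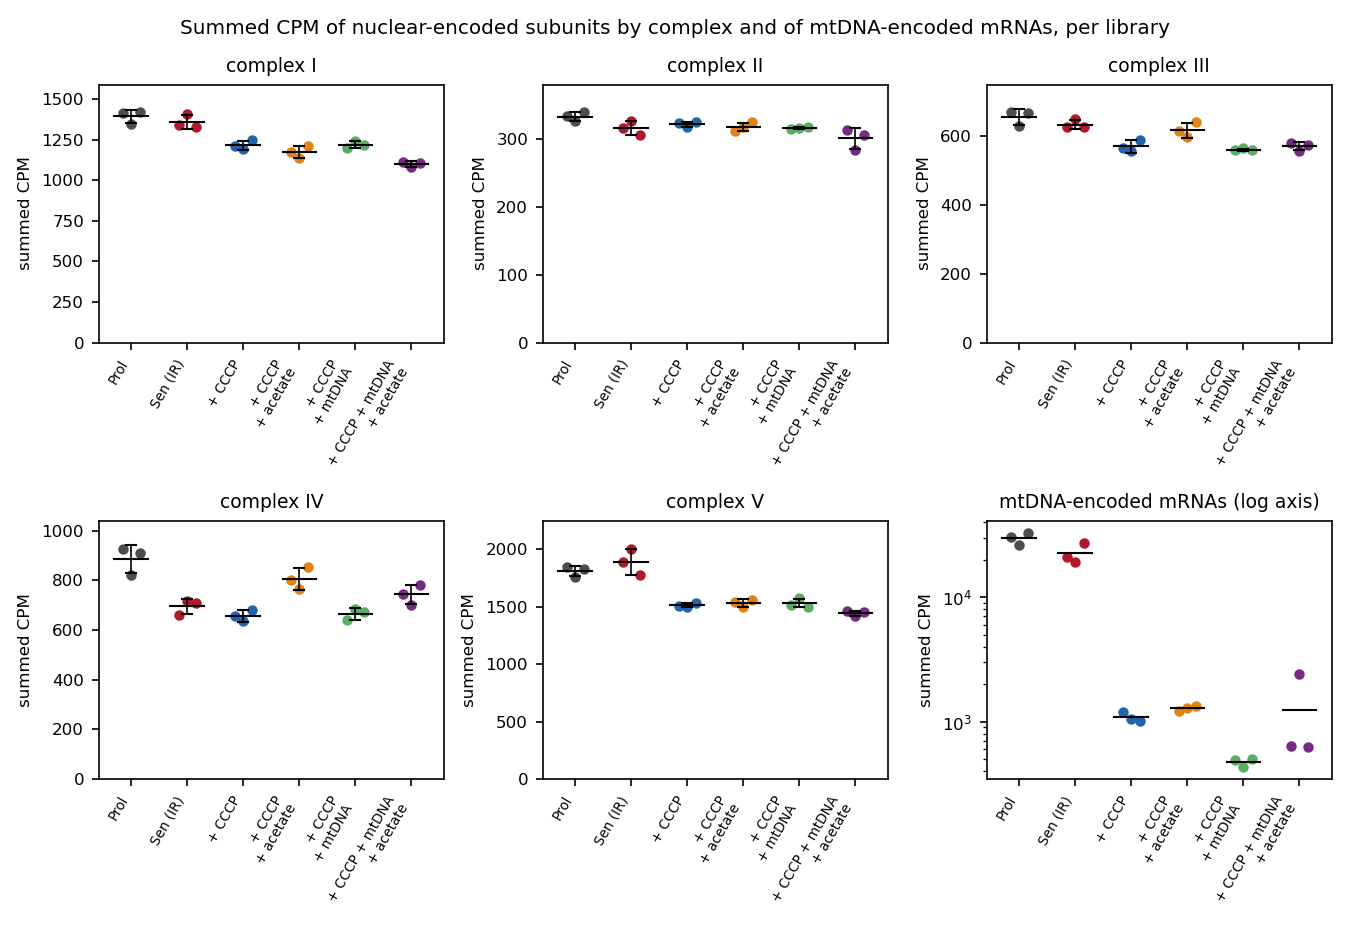
Each panel plots the summed CPM of the subunits of 1 complex, and the last panel the 13 mtDNA-encoded mRNAs on a log axis. Points are libraries, long bars are means of 3 and error bars are SD. Summed complex IV subunits went from 887 CPM in Prol to 696 in Sen (IR) and 659 with CCCP, and stood at 807 with acetate. In TPM the complex IV sum was 1647 in Prol, 1451 in Sen (IR), 1796 with CCCP and 1928 with acetate. With CCCP the sum was therefore below that of Sen (IR) in CPM and above it in TPM. The mtDNA mRNAs went from 29921 CPM in Prol to 1092 with CCCP.

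The nuclear members lie on 22 chromosomes, and many share short promoter words known as sites of NRF1, of ETS factors such as GABPA, and of YY1, which are the factors classically tied to respiratory genes. In RefSeq promoters (GRCh38.p14, 250 bases before to 50 after the start), 70 of the 88 members had an entry. The NRF1 word of 10 bases was in 17 of these members (24.3%) and in 6.98% of 27305 genes. The ETS word CCGGAAG was in 21 of the 70 and in 12.2% of genes, and the YY1 word ATGGCGGC in 12 of the 70 (17.1%) and in 3.67% of genes. Both strands were read, and 57.1% of members had at least 1 of the 3 words compared with 19.9% of genes. The spellings were chosen after others had been counted, and the shares are a description. For 4 members, chosen because their mRNAs moved in opposite directions with acetate, the sequences are the 120 bases before the RefSeq start, 5′ to 3′ on the gene's strand, with the words that lie wholly inside these bases in capitals. NDUFA9 and NDUFS3 were lower with acetate, and UQCRC1 and COX5B were higher.
NDUFA9, chr12:4648994-4649113, plus strand, with an NRF1 word 80 bases before the start: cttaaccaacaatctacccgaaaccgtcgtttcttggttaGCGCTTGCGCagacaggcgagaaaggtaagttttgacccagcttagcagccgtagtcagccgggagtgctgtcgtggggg
NDUFS3, chr11:47578954-47579073, plus strand, with ETS words 102 and 83 bases before the start: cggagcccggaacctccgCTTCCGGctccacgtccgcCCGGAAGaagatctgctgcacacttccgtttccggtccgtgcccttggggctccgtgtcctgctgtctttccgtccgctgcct
UQCRC1, chr3:48609647-48609766, minus strand, with an NRF1 word 47 bases before the start: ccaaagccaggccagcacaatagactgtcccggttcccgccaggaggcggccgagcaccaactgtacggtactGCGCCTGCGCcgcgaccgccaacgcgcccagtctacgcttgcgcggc
COX5B, chr2:97645942-97646061, plus strand, with an ETS word 37 bases before the start: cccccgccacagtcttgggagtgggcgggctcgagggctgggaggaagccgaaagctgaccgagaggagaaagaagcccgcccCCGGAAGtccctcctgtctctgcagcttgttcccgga
Among these 4 picked genes, NRF1 and ETS words each stood before 1 gene of either direction. Whether the words go with direction over all members was not tested. A second ETS word of COX5B begins 5 bases before the start and runs into the transcript, and NDUFA9, NDUFS3 and UQCRC1 each had a YY1 word 14, 19 and 27 bases after the start.

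Levels between subunits were compared per length, in TPM averaged over the 18 libraries. The most abundant tested subunits were ATP5F1B, the catalytic beta subunit of the ATP synthase, at 826 TPM and NDUFS5 of complex I at 813 TPM, and the highest of the other complexes were UQCRH of complex III at 338 TPM, COX8A of complex IV at 267 TPM and SDHD, a membrane anchor of complex II, at 132 TPM. The least abundant tested members of the same complexes were ATP5S at 3.46 TPM, NDUFS7 at 5.89 TPM, UQCRHL at 3.57 TPM, COX6B2 at 0.392 TPM and SDHC at 39.2 TPM. Levels thus differed within each complex. The low ends of complexes III, IV and V were UQCRHL, COX6B2 and ATP5S, which are minor gene copies or not a standing subunit. Those ranges therefore do not describe subunits assembled in fixed numbers. Exons of 32 members overlap a gene on the opposite strand in GENCODE 44, and the study counted by strand only where libraries were strand-specific without saying whether these were, so their values may hold reads of a neighbour. Among the members named here, neighbours with many counts overlap NDUFS3 (CELF1), NDUFB2 (BRAF), NDUFC1 (NAA15), NDUFB8 (HIF1AN), NDUFB3 (HYCC2), NDUFA3 (TFPT), ATP5MD (TAF5), ATP5PD (KCTD2), COX4I1 (EMC8), ATP5PB (WDR77), ATP5PF (GABPA), NDUFB9 (TATDN1 and MTSS1) and ATP5S (CDKL1). Neighbours with few counts overlap ATP5PO (LINC00649), UQCRQ (GDF9), ATP5F1E (TUBB1), NDUFC2 (THRSP), NDUFS7, NDUFV1, NDUFA11, ATP5MG and UQCRB, and those of ATP5IF1, COX6C and NDUFS1 had no counts. Exons of 27 members overlap another gene on the same strand, which counting by strand cannot separate. Such neighbours with many counts include those of NDUFS3 (PTPMT1), NDUFC1 (MGARP), NDUFB2 (ADCK2) and NDUFA13 (YJEFN3). UQCRHL is a near-identical copy of UQCRH and its reads are uncertain. Of the counts on SDHA and its pseudogene names together, 9.07% were on the pseudogene names, and for NDUFV2 the share was 5.62%. From which locus these reads came was not tested.

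The comparison of Sen (IR) with Prol asks how these mRNAs differ between irradiated senescent cells and proliferating cells. Complex IV stood out by its counts: 9 of its 14 tested subunits fell and 0 rose, with a median log2 fold change of -0.24. Over all 83 tested members, 25 fell and 13 rose, whereas 29.9% of all genes fell and 26.7% rose. Members had a median log2 fold change of -0.08 and all genes one of -0.01. With plain library totals 16 members fell and 23 rose, so the balance over all members turned, whereas complex IV then had 6 lower and 0 higher. Without Sen (IR) replicate 3, 26 members fell and 15 rose, and 8 complex IV subunits fell. Without Sen (IR) replicate 2 only 6 members rose. Calls rest on edgeR's quasi-likelihood test with Benjamini-Hochberg adjustment at 0.05, here and throughout.

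NDUFA4, a small complex IV subunit once assigned to complex I, showed the largest fall among well-counted members. Its level was 121, 117 and 120.1 CPM in the Prol libraries and 51.4, 56.3 and 72.7 CPM in Sen (IR). The groups were far apart, with a log2 fold change of -0.99 ± 0.11 (SE; adjusted p = 1.15e-07). COX7C, another small subunit, measured 121, 105 and 118 CPM in Prol and 70.7, 78.4 and 77.8 CPM in Sen (IR), a change of -0.60 ± 0.07 (log2; adjusted p = 6.89e-08). COX7A2, the widely expressed COX7A isoform, measured 76.7, 66.8 and 80.0 CPM in Prol and 43.9, 44.9 and 52.9 CPM in Sen (IR), a change of -0.66 ± 0.10 (adjusted p = 9.75e-06). For neither gene did the libraries overlap. COX7B (-0.48), COX6C (-0.31), COX5B (-0.25), COX7A2L (-0.23) and COX4I1 (-0.18) also fell, on the log2 scale. COX6B2, the testis isoform of COX6B, fell at very low counts: 14, 30 and 30 counts in Prol and 3, 5 and 8 in Sen (IR) (adjusted p = 0.000415). COX5A (0.06), COX6A1 (-0.01), COX6B1 (-0.10), COX8A (-0.06) and COX7A1 (0.29) did not pass the test.

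Complex I was split, with 7 subunits higher and 8 lower of 36 and a median log2 fold change of -0.01. The 2 core subunits that rose were NDUFS3 (0.28) and NDUFV2 (0.14), and the other 5 core subunits did not pass. NDUFC2 rose from 29.96, 28.1 and 27.6 CPM in Prol to 37.3, 38.0 and 33.5 CPM in Sen (IR), by 0.35 ± 0.07 (log2; adjusted p = 0.000134). NDUFV3, an accessory subunit beside the NADH site, rose from 33.0, 33.8 and 34.1 CPM to 41.6, 41.6 and 42.3 CPM, by 0.31 ± 0.06 (adjusted p = 9.59e-05). Among those that fell were NDUFA11 (-0.47), NDUFB9 (-0.40), NDUFA12 (-0.32), NDUFS4 (-0.31) and NDUFB8 (-0.29). With library totals 13 complex I subunits were higher and 5 lower.

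In complex III, UQCRFS1, the Rieske iron-sulfur protein, rose by 0.19 and UQCRQ and UQCRB fell by 0.41 and 0.18 on the log2 scale. In complex II only SDHC changed, by -0.19 (log2), while SDHA (-0.09), SDHB (0.14) and SDHD (0.02) did not pass. Complex V had 5 higher and 5 lower of 19. ATP5F1B rose from 366, 371 and 367 CPM in Prol to 499, 526 and 447 CPM in Sen (IR), by 0.41 ± 0.05 (log2; adjusted p = 3.48e-07). ATP5IF1, the protein that blocks ATP hydrolysis, rose from 38.6, 33.8 and 39.8 CPM to 54.3, 58.6 and 44.4 CPM, by 0.49 ± 0.09 (adjusted p = 4.72e-05). Every Sen (IR) library exceeded every Prol library for both genes, although replicate 3 was the lowest of its group for each. ATP5F1E, the epsilon subunit, and ATP5PO, the stalk subunit named after oligomycin sensitivity, fell by 0.57 and 0.46 on the log2 scale.

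**Figure D2:**
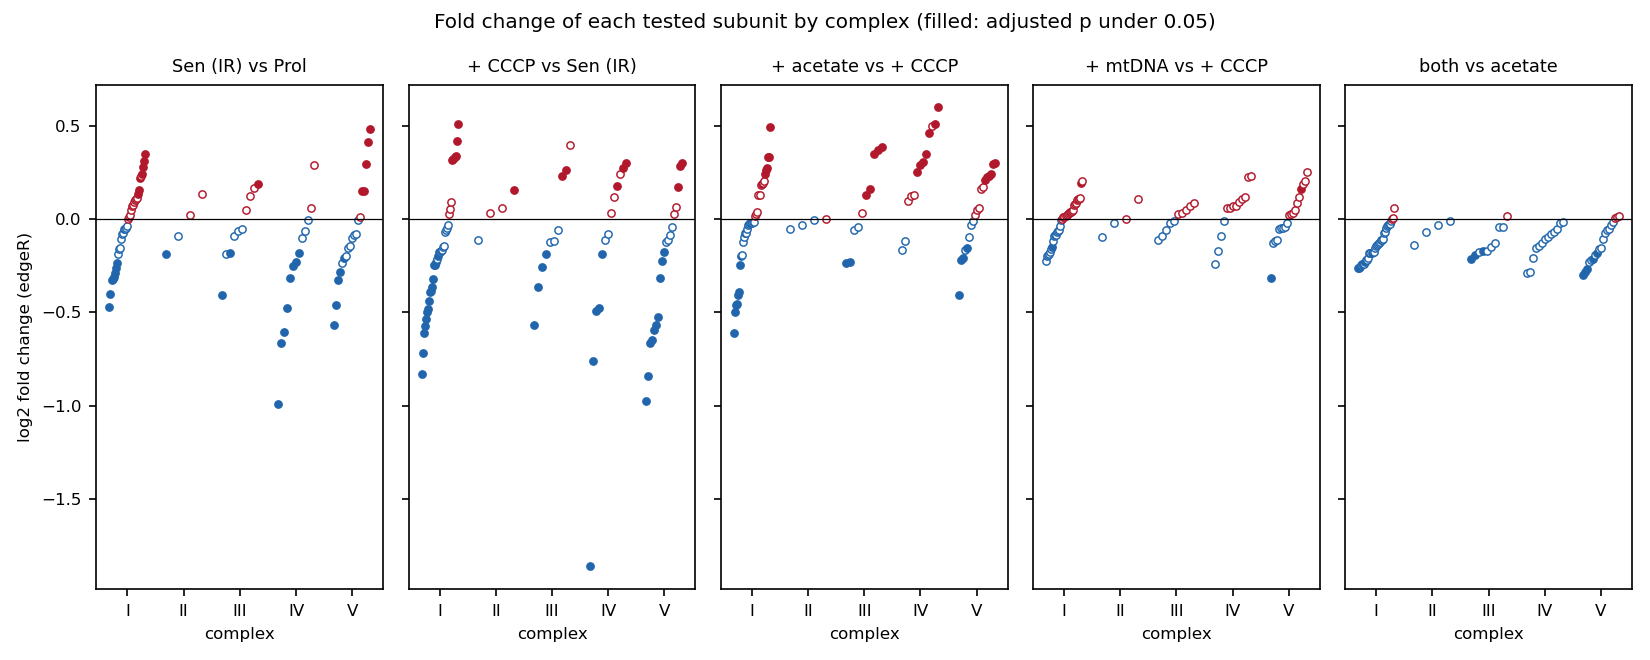
Each point is 1 tested subunit, placed by complex and ordered within it, and the y axis gives its log2 fold change in 5 comparisons. Filled points passed an adjusted p of 0.05, red is higher and blue lower, and COX6B2 is left out for its low counts. Of the points drawn for complex IV, 8 are filled below 0 for Sen (IR) against Prol and 7 are filled above 0 for acetate against CCCP. With library totals complex IV had 6 lower in the first and 6 higher and 2 lower in the second.

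The comparison of Sen (IR) + CCCP with Sen (IR) asks how nuclear genes for mitochondrial proteins differ after CCCP treatment that clears mitochondria. With CCCP 37 of 83 members fell and 15 rose relative to Sen (IR), whereas 31.3% of all genes fell and 34.0% rose. Members had a median of -0.15 and all genes one of 0.03. With library totals 18 fell and 32 rose, since that scaling raised all genes by about as much. Without Sen (IR) replicate 3 the counts were 40 and 14. Falls of this size contrast with the 13 mtDNA mRNAs, of which the least reduced fell by 4.07 on the log2 scale.

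ATP5F1A, the alpha subunit that forms the head of the ATP synthase together with ATP5F1B, fell most among abundant members. It measured 422, 428 and 356 CPM in Sen (IR) and 202, 208 and 202 CPM with CCCP, and the log2 fold change was -0.98 ± 0.06 (adjusted p = 1.56e-12). Its partner ATP5F1B fell by 0.22 and ATP5F1C, the gamma shaft, by 0.17 on the log2 scale, so the 3 main parts of the head changed by unequal amounts. ATP5IF1, which had risen in senescence, measured 30.2, 27.8 and 30.1 CPM, all below the Prol libraries (-0.84 ± 0.09 against Sen (IR); adjusted p = 1.61e-08). All 3 genes for subunit c, which forms the rotor ring, fell by 0.53 to 0.67 (log2). ATP5MG (0.29), ATP5MPL (0.30) and ATP5PB (0.17) were the members of complex V that rose.

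In complex I 18 of 36 subunits fell and 6 rose, and with library totals 7 fell and 11 rose. NDUFA9, which sits where the arms of the complex meet, measured 43.7, 38.8 and 46.5 CPM in Sen (IR) and 62.1, 59.8 and 62.1 CPM with CCCP, a rise of 0.51 ± 0.06 (log2; adjusted p = 1.54e-07). NDUFV2, an iron-sulfur subunit of the NADH arm, rose from 23.5, 23.3 and 22.8 CPM to 30.8, 30.3 and 31.9 CPM (0.42 ± 0.05; adjusted p = 2.18e-07). NDUFS3 rose from 25.1, 25.4 and 23.7 CPM to 29.5, 30.9 and 33.7 CPM (0.34 ± 0.07; adjusted p = 0.000107), and NDUFB5 rose by 0.33 ± 0.07 (adjusted p = 0.00011). Core subunits went both ways, for NDUFV1, which binds NADH, and NDUFS1 fell by 0.23 and 0.20 (log2), and NDUFS7 (-0.17) and NDUFS8 (-0.18) did not pass. NDUFB1, a small membrane-arm subunit, fell from 15.5, 16.4 and 14.5 CPM to 9.92, 7.12 and 9.18 CPM (-0.83 ± 0.14; adjusted p = 1.33e-05).

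The proteins of UQCRC2 and NDUFB8 are often blotted to follow complexes III and I, and the study used them to show loss of mitochondria. UQCRC2, a large structural subunit of complex III, measured 128, 124 and 114 CPM in Sen (IR) and 82.5, 80.5 and 84.3 CPM with CCCP (-0.57 ± 0.05, log2; adjusted p = 2.07e-09). NDUFB8 measured 16.6, 17.0 and 18.4 CPM and then 11.8, 11.8 and 13.1 CPM (-0.50 ± 0.08; adjusted p = 1.47e-05). Both mRNAs therefore fell relative to the bulk of genes but remained well above the floor of 3 counts, which is at most 0.122 CPM in these libraries. In TPM the falls were smaller. UQCRC2 averaged 93.1 TPM in Sen (IR) and 84.6 with CCCP, and NDUFB8 34.5 and 32.9 with overlapping libraries. In complex III UQCRC1 fell by 0.36 and CYC1, cytochrome c1, and UQCRH rose by 0.27 and 0.23 (log2).

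In complex II 1 of 4 genes passed: SDHB, its iron-sulfur protein, rose by 0.16 ± 0.06 (log2; adjusted p = 0.0227), and SDHA (-0.11), SDHC (0.06) and SDHD (0.03) did not pass. With library totals all 4 were higher, with a median of 0.31. Over all 18 libraries SDHD stayed between 65.0 and 76.4 CPM. In complex IV 5 of 14 fell and 3 rose, and with library totals 4 fell and 7 rose. COX7A1, the COX7A isoform typical of heart and skeletal muscle, fell from 7.54, 8.83 and 6.17 CPM in Sen (IR) to 1.92, 2.10 and 2.18 CPM with CCCP (-1.86 ± 0.21, log2; adjusted p = 5.92e-08). COX5B, COX4I1 and COX6B1 fell by 0.76, 0.49 and 0.48 (log2), and NDUFA4, COX7A2 and COX6A1 rose by 0.28, 0.30 and 0.18, so NDUFA4 and COX7A2, which had fallen in senescence, moved the other way with CCCP.

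Relative to Prol, Sen (IR) + CCCP shows the sum of both steps. Of 83 members 47 were lower and 13 higher, whereas 34.1% of all genes were lower and 35.1% higher. Members had a median of -0.23 and all genes one of 0.03. With library totals 23 were lower and 39 higher. ATP5F1A (-0.98 ± 0.06; adjusted p = 1e-12), COX5B (-1.01 ± 0.10; adjusted p = 1e-08) and COX7A1 (-1.57 ± 0.21; adjusted p = 9.37e-07) were the members with the deepest falls apart from COX6B2, which had 1, 5 and 2 counts with CCCP. COX5B measured 39.2, 28.9 and 34.2 CPM in Prol and 16.4, 17.1 and 17.3 CPM with CCCP. The members with the largest rises were all in complex I: NDUFC2 (0.67), NDUFS3 (0.62), NDUFA9 (0.56) and NDUFV2 (0.55).

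**Figure D3:**
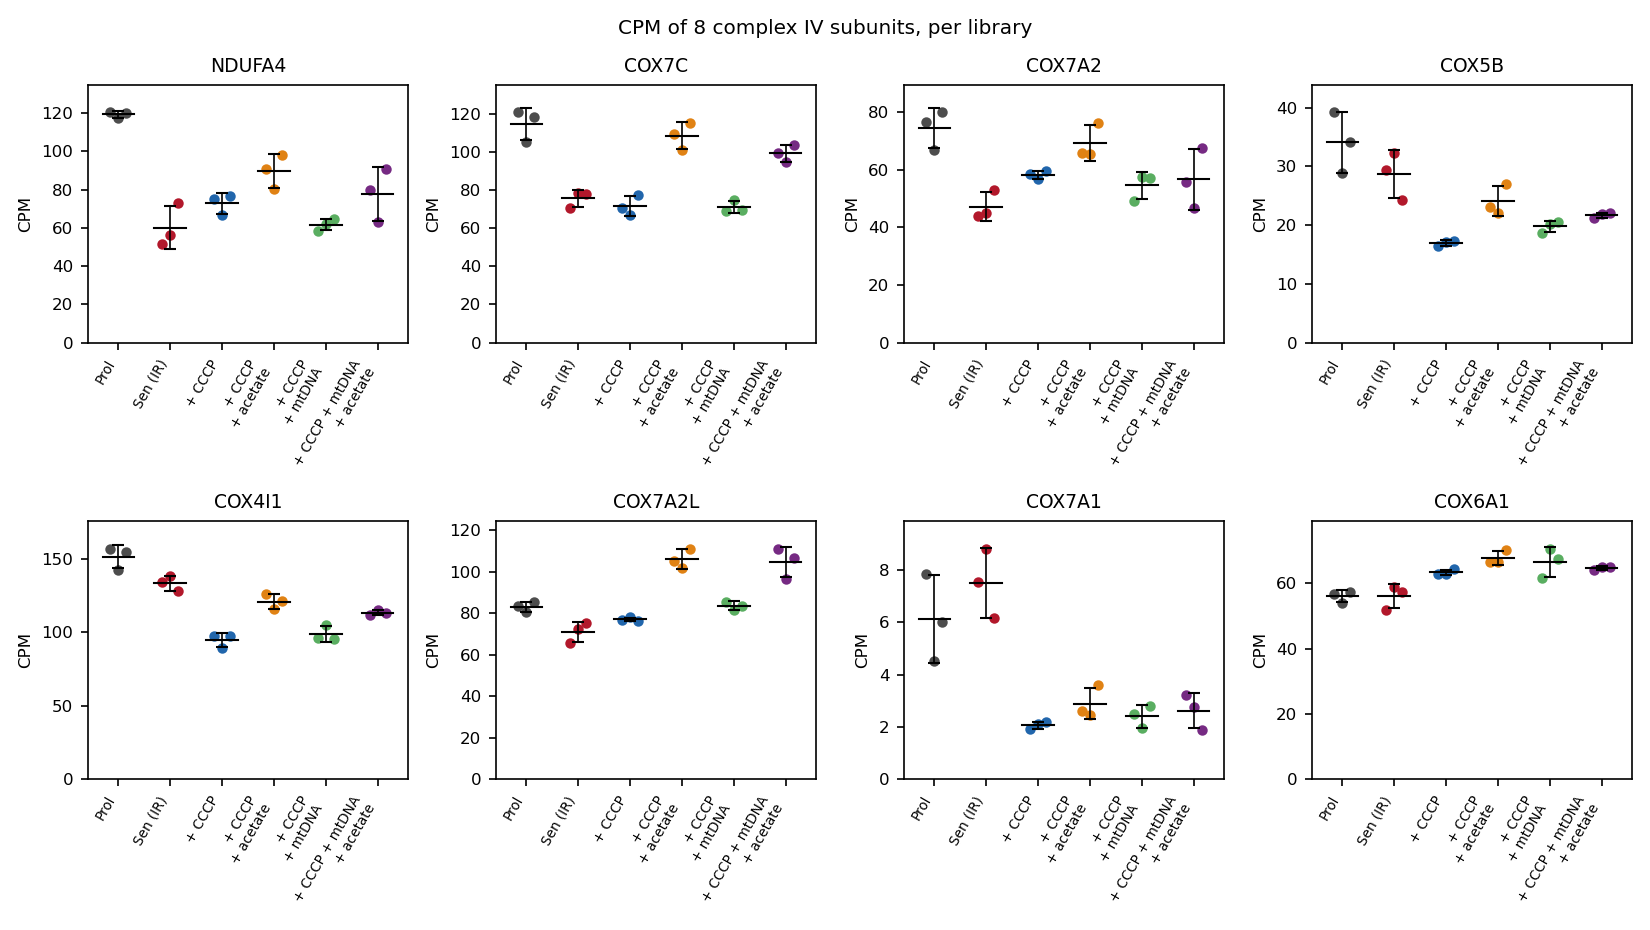
Each panel plots the CPM of 1 complex IV subunit in the 18 libraries, with means as long bars and SD as error bars. COX7C stood at 67.0 to 78.4 CPM in Sen (IR) and with CCCP, and at 101 to 115 CPM with acetate, near the 105 to 121 CPM of Prol.

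The comparison of acetate with CCCP alone asks whether these genes differ when sodium acetate is given to cells cleared of mitochondria. The result was divided by complex. In complex IV 8 of 14 subunits rose and 0 fell, with a median log2 fold change of 0.30. In complex I 7 rose and 8 fell of 36, with a median of -0.02. Over all 83 members 26 rose and 14 fell, whereas 28.8% of all genes rose and 28.3% fell. Members had a median of 0.03 and all genes one of 0.01, so the members as a whole were near the background. With library totals 15 rose and 29 fell, so the balance over all members turned, while complex IV had 6 higher and 2 lower and complex I 3 higher and 16 lower.

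COX7C rose from 70.7, 67.0 and 77.5 CPM with CCCP alone to 109, 101 and 115 CPM with acetate, by 0.60 ± 0.07 (log2; adjusted p = 6.52e-08). COX5B rose from 16.4, 17.1 and 17.3 CPM to 23.0, 22.1 and 26.9 CPM, by 0.51 ± 0.10 (adjusted p = 0.000187). COX7A2L, COX4I1, NDUFA4, COX6C and COX7A2 rose by 0.46, 0.35, 0.31, 0.29 and 0.25 (log2). For COX7A2L the acetate libraries, at 105, 102 and 111 CPM, lay above those of all groups without acetate. COX6B2 had 7, 26 and 23 counts with acetate against 1, 5 and 2 without (adjusted p = 0.00087), counts too low for a fold to be given. COX7A1 measured 2.63, 2.47 and 3.59 CPM (0.50, not passed), so most of its loss with CCCP remained.

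Comparing senescence with acetate uses 4 groups with no library in common. Of the 9 complex IV subunits lower in Sen (IR) than in Prol, 8 (88.9%) were higher with acetate than with CCCP alone, and these were all 8 that rose with acetate. COX7B was the ninth, with 0.13 (log2, not passed) for acetate. Over all tested genes, 44.1% of those lower in Sen (IR) were higher with acetate, which is the background for this overlap. With library totals 6 complex IV subunits were lower in senescence, 6 higher with acetate, and 3 were both, beside 1464 of the 4050 genes lower in senescence under that scaling.

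Several complex I subunits went the other way with acetate. NDUFA9 fell from 62.1, 59.8 and 62.1 CPM with CCCP to 40.5, 40.6 and 39.3 CPM with acetate (-0.61 ± 0.06, log2; adjusted p = 1.46e-08), within the range of the Prol libraries. NDUFC2 fell from 44.5, 48.8 and 43.0 CPM to 31.8, 32.2 and 32.7 CPM (-0.50 ± 0.06; adjusted p = 9.19e-07). NDUFS3 fell from 29.5, 30.9 and 33.7 CPM to 22.2, 22.9 and 23.0 CPM (-0.46 ± 0.07; adjusted p = 3.03e-06). NDUFA6, which holds an acyl carrier protein on the complex, fell from 41.6, 42.8 and 45.4 CPM to 30.5, 31.0 and 33.1 CPM (-0.45 ± 0.06; adjusted p = 1.79e-06), whereas with CCCP it had not passed (-0.06). NDUFC1 (-0.41), NDUFB2 (-0.39), NDUFV2 (-0.24) and NDUFA12 (-0.19) completed the list. Higher were NDUFB1, from 9.92, 7.12 and 9.18 CPM to 12.7, 10.8 and 13.4 CPM (0.49 ± 0.14; adjusted p = 0.00346), and NDUFA3 (0.34), NDUFB3 (0.33), NDUFA11 (0.27), NDUFS5 (0.26), NDUFA13 (0.24) and NDUFA5 (0.19), which are all supernumerary.

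In complex III 5 of 10 rose and 2 fell, and with library totals 3 rose and 3 fell. CYC1 and UQCRFS1, the nuclear-encoded subunits that carry redox groups, both fell by 0.23 (log2), and those that rose were UQCRQ (0.39), UQCRC1 (0.37 ± 0.05; adjusted p = 2.95e-06), UQCRC2 (0.35 ± 0.05; adjusted p = 4.34e-06), UQCRH (0.16) and UQCR11 (0.13). UQCRC2 measured 102, 108 and 105 CPM with acetate, above the CCCP libraries and below all Prol libraries. None of the 4 complex II genes passed, with log2 fold changes from -0.05 to 0.00 in edgeR, and 0 of them had an unadjusted p under 0.05, while with library totals 2 were lower. In complex V 6 rose and 4 fell of 19. ATP5F1A rose from 202, 208 and 202 CPM to 258, 246 and 249 CPM (0.30, log2), still below the 399 to 411 CPM of Prol, and its partner ATP5F1B fell by 0.16.

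**Figure D4:**
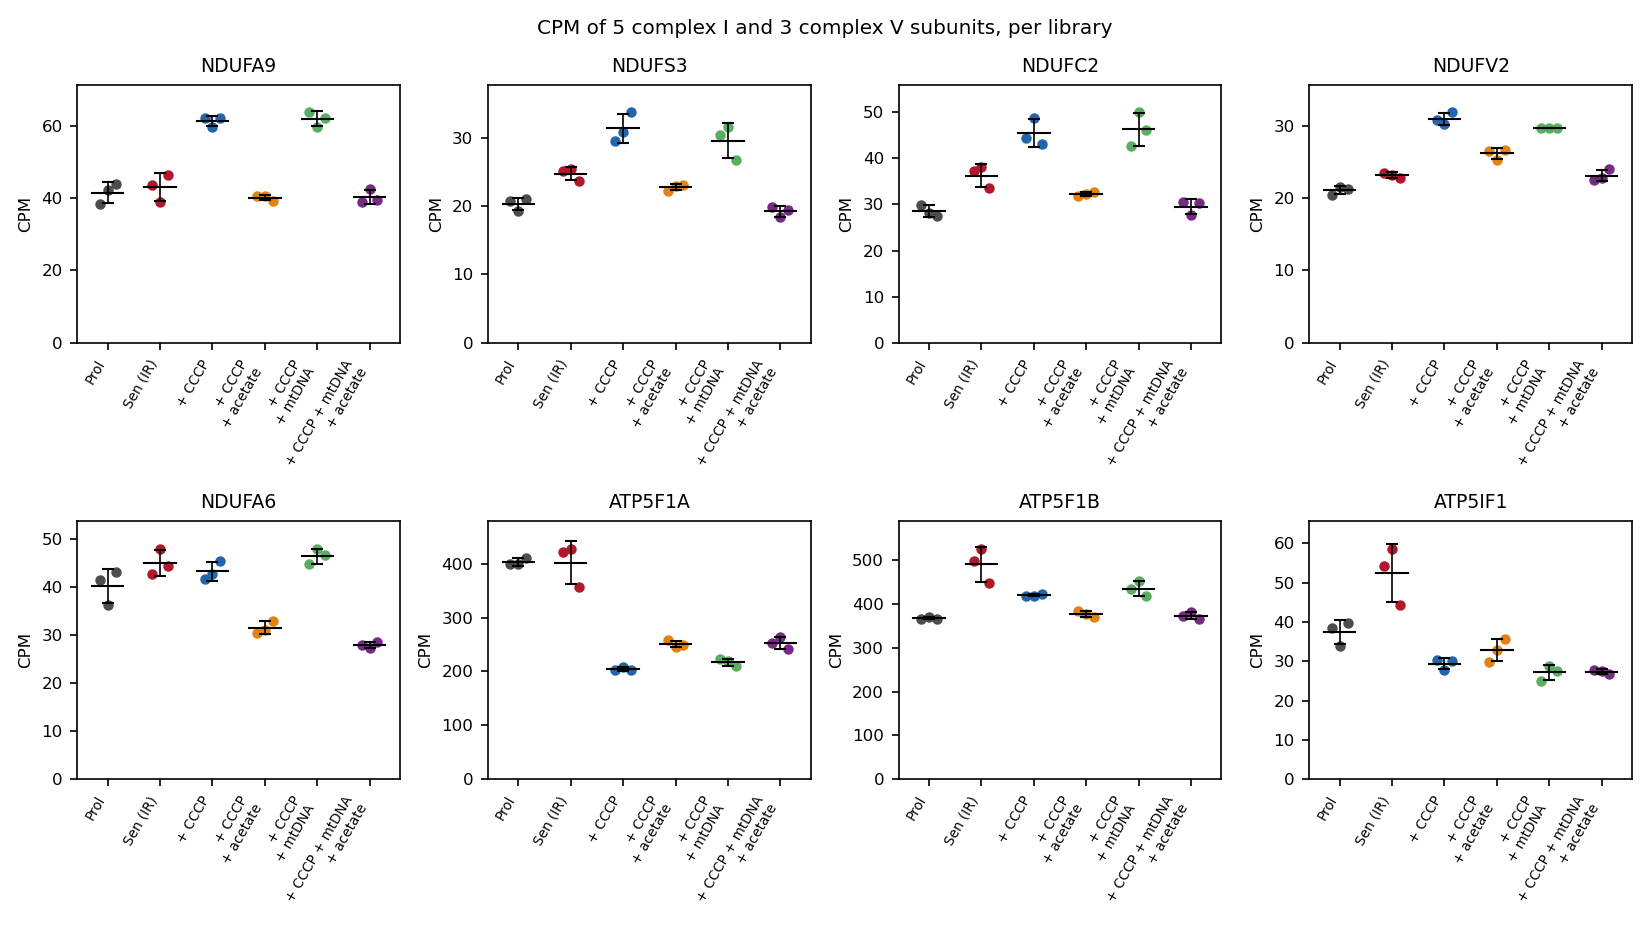
Each panel plots the CPM of 1 subunit of complex I (NDUFA9, NDUFS3, NDUFC2, NDUFV2, NDUFA6) or complex V (ATP5F1A, ATP5F1B, ATP5IF1) in the 18 libraries, with means as long bars and SD as error bars. NDUFA9 stood at 59.7 to 63.8 CPM in the CCCP groups without acetate and at 38.3 to 46.5 CPM in the other 4 groups.

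Transfected mtDNA, given without acetate, moved few members. Relative to Sen (IR) + CCCP 2 rose and 2 fell of 83, whereas 10.7% of all genes rose and 7.40% fell. Members had a median of 0.02 and all genes one of 0.00, and with library totals 0 rose and 7 fell. The 2 that rose were NDUFS4, from 30.8, 33.4 and 34.7 CPM to 37.2, 37.7 and 38.3 CPM (0.19 ± 0.06, log2; adjusted p = 0.0207), and ATP5PD, from 73.9, 71.1 and 76.3 CPM to 81.5, 80.4 and 85.9 CPM (0.16 ± 0.05; adjusted p = 0.0308). ATP5MC1, 1 of the 3 subunit c genes, fell from 20.2, 17.9 and 19.2 CPM to 15.5, 15.2 and 15.3 CPM (-0.31 ± 0.08; adjusted p = 0.00714), and NDUFV1 fell from 38.4, 38.0 and 40.9 CPM to 35.1, 36.0 and 34.7 CPM (-0.15 ± 0.05; adjusted p = 0.0423). Without Sen (IR) + CCCP replicate 1 none of these 4 passed, and NDUFV1 did not pass in any of the 6 fits that each dropped 1 library. All 14 complex IV subunits lay between -0.24 and 0.25 and did not pass.

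With acetate and mtDNA together, 30 of 83 members were lower and 14 higher than with CCCP alone, compared with 31.4% of all genes lower and 30.3% higher. The medians were -0.05 for members and -0.04 for all genes, and the members' median was 0.06 after adjustment for gene length. Complex IV had 6 higher and 2 lower, which turned to 3 higher and 5 lower with library totals, and complex I had 15 lower and 2 higher. Without replicate 2 of the combined group, which held more mtDNA mRNA than its partners, 22 members were lower and 18 higher, and with library totals 48 and 6. The largest falls were NDUFS3, to 19.8, 18.3 and 19.4 CPM (-0.70 ± 0.07, log2; adjusted p = 8.68e-09), NDUFB2, to 16.0, 14.4 and 16.1 CPM (-0.65 ± 0.07; adjusted p = 9.77e-08), NDUFA6 (-0.63 ± 0.06; adjusted p = 1.91e-08) and NDUFC2 (-0.62 ± 0.07; adjusted p = 4.09e-08). The largest rises apart from COX6B2 (21, 13 and 6 counts) were COX7C, to 99.5, 94.9 and 104 CPM (0.47 ± 0.07; adjusted p = 1.98e-06), COX7A2L (0.44 ± 0.06; adjusted p = 4.5e-07) and UQCRC1 (0.39 ± 0.05; adjusted p = 1.41e-06).

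Against mtDNA alone the combination shows what acetate did in the presence of mtDNA. Of 83 members 29 were lower and 18 higher, compared with 29.9% and 27.4% of all genes, with medians of -0.08 and -0.02. Without replicate 2 of the combined group 22 were lower and 21 higher. NDUFA6 fell from 44.8, 47.9 and 46.7 CPM to 27.9, 27.3 and 28.6 CPM (-0.73 ± 0.06, log2; adjusted p = 2.36e-09). NDUFC1 (-0.66 ± 0.10; adjusted p = 4.45e-06), NDUFC2 (-0.65 ± 0.07; adjusted p = 3.01e-08) and NDUFA9 (-0.62 ± 0.06; adjusted p = 1.51e-08) fell as well. COX7C (0.48 ± 0.07; adjusted p = 1.74e-06), NDUFB1 (0.44 ± 0.14; adjusted p = 0.012) and UQCRC2 (0.42 ± 0.05; adjusted p = 4.18e-07) rose. With library totals the counts were 44 lower and 5 higher. The comparison shares the combined group with the one above, and the values stand side by side without a test of likeness.

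Against acetate alone the combination shows the difference made by mtDNA together with its transfection in the presence of acetate. Of 83 members 13 were lower and 0 higher, whereas 6.0% of all genes fell and 6.57% rose. Of the members 76 of 83 had a negative log2 fold change, with a median of -0.13 for members and 0.00 for all genes. All were small, from -0.30 to 0.06. ATP5MD measured 52.6, 50.1 and 55.1 CPM with acetate and 43.7, 36.3 and 48.0 CPM with both (-0.30 ± 0.10, log2; adjusted p = 0.0431). ATP5MG measured 79.3, 77.3 and 88.7 CPM and then 72.8, 60.8 and 67.7 CPM (-0.28 ± 0.07; adjusted p = 0.0114), and ATP5IF1 (-0.27 ± 0.09; adjusted p = 0.0498) and NDUFB2 (-0.26 ± 0.07; adjusted p = 0.0229) fell likewise. These calls were fragile: without replicate 2 of the combined group, or without replicate 3 of the acetate group, 1 member was lower. Without Sen (IR) replicate 3, which is in neither group compared but enters the shared fit, 18 were lower. With DESeq2's size factors 4 were. Members are short, 48 of 83 lying among the shortest 30% of tested genes. In this comparison the shortest 10% of all genes had a median of -0.16, and after subtracting the median of genes of like length the members' median was -0.09. The part of gene length in these values was not tested further.

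Whether mtDNA together with its transfection changed the effect of acetate was tested by the interaction. For 0 of 83 members did it pass in edgeR, compared with 0.583% of all genes lower and 0.0765% higher. At an unadjusted p under 0.05 there were 12 members, all negative, compared with 11.4% of all genes, and DESeq2 called 0, with 7 at an unadjusted p under 0.05. The median interaction was -0.13 (log2) for members and -0.02 for all genes.

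Where a subunit has several gene copies, the mix of copies differed between groups. In TPM, ATP5MC1, ATP5MC2 and ATP5MC3, which encode the same mature subunit c, made up 26.8%, 30.7% and 42.5% of their sum in Prol, 32.9%, 24.4% and 42.7% in Sen (IR), and 33.5%, 25.7% and 40.8% with CCCP. With acetate the shares were 26.3%, 23.8% and 49.9%, with mtDNA 27.9%, 30.5% and 41.6%, and with both 24.8%, 23.9% and 51.2%. ATP5MC3 took the larger share in both acetate groups, where its libraries lay at 49.4% or more, and its SD was at most 2.48 percentage points in any group. In the fit ATP5MC3 rose by 0.23 and ATP5MC1 fell by 0.41 with acetate (log2), and ATP5MC2 (-0.16) did not pass. COX7A1 made up 13.5% ± 2.58 of COX7A mRNA in Prol, 23.4% ± 4.69 in Sen (IR) and 6.35% ± 0.378 with CCCP (SD, n = 3), with 7.35% to 8.37% in the groups given acetate, mtDNA or both. The muscle or tissue-restricted copies COX4I2, COX6A2, COX7B2 and COX8C had at most 4 counts in any library. COX6B2 made up at most 0.363% of COX6B as a group mean and 0.522% in a single library, and UQCRHL made up 0.940% to 1.16% of the UQCRH pair.

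**Figure D5:**
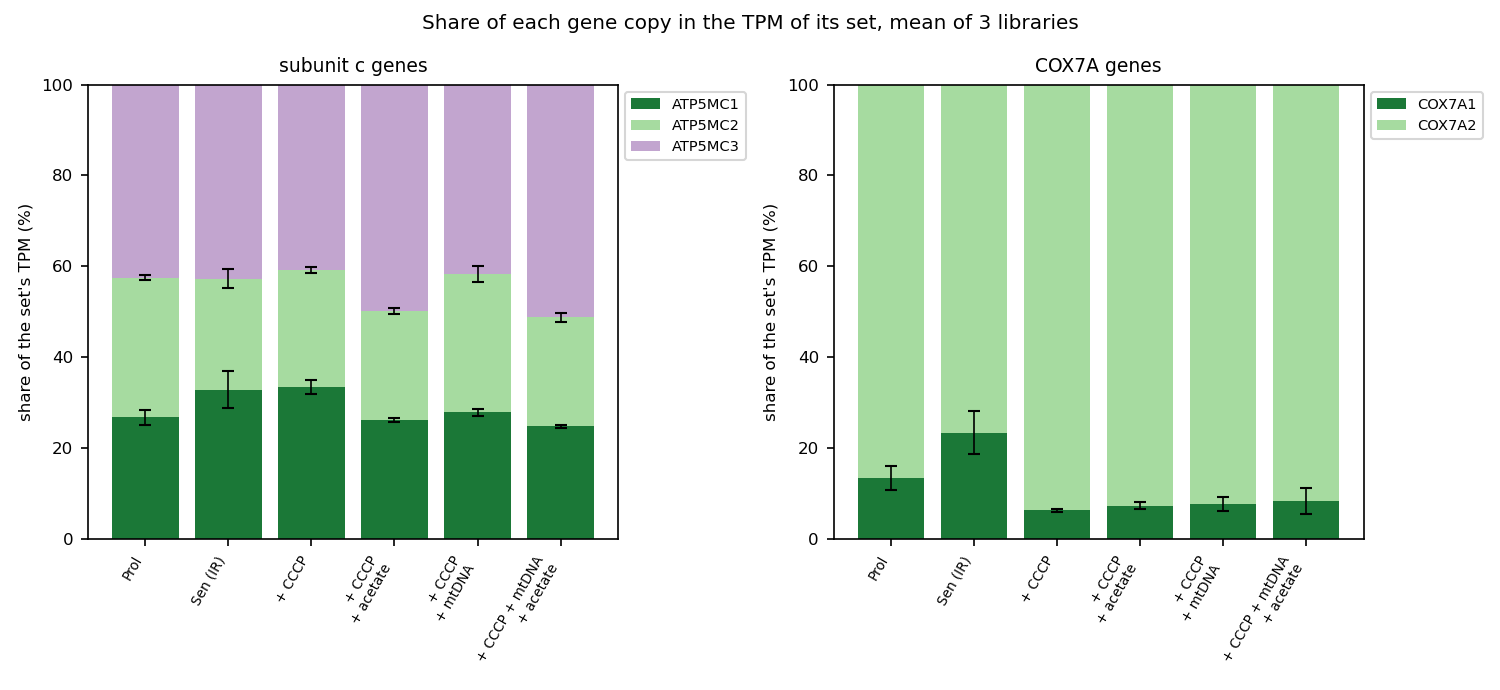
Stacked bars give the share of each gene copy in the summed TPM of its set as means of 3 libraries, for the subunit c genes on the left and the COX7A genes on the right, with SD at the top of the lower segments. ATP5MC3 holds 49.9% and 51.2% in the groups with acetate and 40.8% to 42.7% in the others, and COX7A1 is highest in Sen (IR) at 23.4%.

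Other genes of the pathway were counted in the same way. Of 54 assembly factors, which build the complexes without staying in them, 15 were higher and 10 lower in Sen (IR) than in Prol, beside 26.7% and 29.9% of all genes. With CCCP 29 rose and 8 fell relative to Sen (IR), beside 34.0% and 31.3% of all genes, with a median of 0.23, whereas the subunits' median was -0.15. SDHAF3 (1.35) and TMEM126A (1.17) rose most and NDUFAF3 (-1.28) and ACAD9 (-0.98) fell most (log2). With acetate 26 assembly factors fell and 11 rose, beside 28.3% and 28.8% of all genes, COA6 (-0.71) and NDUFAF5 (-0.67) falling most and NDUFAF3 (0.63) and HIGD1A (0.47) rising most. With mtDNA 3 rose and 3 fell, beside 10.7% and 7.40%. Of 20 genes for electron carriers, dehydrogenases that feed ubiquinone, ubiquinone synthesis and subunits outside the name rule, 10 rose and 4 fell with CCCP, against the same shares of all genes as above, led by DHODH (1.36), a pyrimidine enzyme that reduces ubiquinone, and GPD2 (1.18), while ETFB (-0.98) and SQOR (-0.85) fell most. With acetate 14 of these 20 fell and 4 rose, again beside 28.3% and 28.8% of all genes, with COQ2 (-1.56), a ubiquinone synthesis enzyme, falling most and NDUFA4L2 (1.22), the relative of NDUFA4 known to be induced by hypoxia, rising most.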

How the data were processed

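Polyadenylated RNA of IMR90 cells was sequenced in 18 libraries, 3 per group, and groups were taken from the sample labels. Per the authors, Trimmomatic v0.36 removed adapters, STAR v2.5.2b mapped reads to GRCh38, and featureCounts (Subread v1.5.2) summed uniquely mapped reads per gene. Raw counts and TPM values were deposited. The authors' TPM values correct for transcript length. They served for levels and shares between genes and for a few values set beside CPM. Per the study, strand-specific libraries were counted by strand, but whether these libraries were strand-specific is not given in the sources used here. Total counts were 24624886 to 46224280 per library, which limits precision for genes with few counts.

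Counts were fitted with edgeR 4.0.16 (R 4.3.3, quasi-likelihood test) with 6 group means over all 18 libraries, TMM scaling and filterByExpr, which left 16994 genes. Differences between groups were tested with Benjamini-Hochberg adjustment over all genes and a threshold of 0.05. SE is the log2 fold change divided by the square root of F. The test was also run on simulated data with known changes, built from the fit of these counts. That outcome is not given here. Full values went to the up to 4 largest rises and falls past the threshold with no overlap between libraries in each contrast, to complex II, complex I core subunits, gene copies, UQCRC2, NDUFB8, and the most and least abundant member of each complex. Further members were named after their values were seen. Of the other lists, at most the 2 largest in each direction were named. The members and lists were chosen with earlier results of these data known. Alternatives were DESeq2 1.42.0, its size factors, other filters, only the groups compared, a replicate block, a length adjustment, mtDNA-encoded genes left out, library totals and each library left out. Replicate numbers showed no clear pairing of the libraries. The values of 1 member are not reported here.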

Additional observations from a re-analysis of the deposited data

How the results depend on the processing

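Single members were followed under the alternatives only where they were among the up to 4 largest rises or falls of a contrast. Smaller calls named above were not covered. Of 776 such values, 736 kept direction and call, 40 lost the call and 0 reversed. Nearly all lost calls were in mtDNA against CCCP and in the combination against acetate. Library totals without TMM, chosen after seeing the data, gave members higher and lower of 23 and 16 with a median of 0.0171 for Sen (IR) against Prol. The same scaling gave 32 and 18 (0.111) for CCCP against Sen (IR), 39 and 23 (0.1235) for CCCP against Prol, 15 and 29 (-0.0957) for acetate against CCCP, and 0 and 7 (-0.0461) for mtDNA against CCCP. For the combination it gave 6 and 48 (-0.2259) against CCCP, 23 lower against acetate, and 5 and 44 (-0.1893) against mtDNA. Without a filter on low counts, 7 members rose in Sen (IR) and 0 with mtDNA. With only the groups compared, 6 fell with mtDNA and 8 with the combination against acetate, where DESeq2's size factors and DESeq2's Wald test gave 4 each. After adjustment for gene length the members' median was 0.0553 for the combination against CCCP and -0.0233 against mtDNA. The cause of these shifts was not tested.

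Leaving out 1 library of the groups compared at a time, 6 to 15 members rose in Sen (IR), with 6 without Sen (IR) replicate 2. For mtDNA 0 to 2 rose and 0 to 1 fell, and 0 of either without replicate 1 of Sen (IR) + CCCP. For the combination the median against CCCP was -0.0578 to -0.0171, and 1 to 10 members fell against acetate, with 1 without acetate replicate 3 or combination replicate 2. Libraries of other groups enter through the shared filter, scaling and spread: without Sen (IR) replicate 3, 18 members fell in the combination against acetate. The replicate numbers showed no clear pairing of the libraries: correlations of same-numbered deviations were -0.170 to 0.15, and 8 of 18 libraries correlated best with their own number. With so few libraries per group this check cannot exclude pairing. With the replicate block, members higher and lower were 13 and 26 for Sen (IR) against Prol, 16 and 39 for CCCP against Sen (IR), 27 and 14 for acetate and 0 and 16 for the combination against acetate, where ATP5IF1 (-0.27) lost its call. Few counts limit COX6B2 and COX7A1, and the untested members can show no difference at this depth.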
